A study of Mus musculus with 20 samples.

Results

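The synaptic vesicle and release machinery was followed here in mouse cortex as 31 gene symbols, which the authors' count table held as 32 of its 43346 gene rows. Rows were taken by symbol, without a rule on measured values, but the symbols were chosen with earlier results of these data known. Pclo had a second row, a lincRNA of another identifier (chromosome 5, 14861407 to 14863459), which begins just past the end of the protein-coding row, and it is given separately. All 32 rows passed the filter on low counts.

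Neurons store transmitter in synaptic vesicles, which are filled by transporters, held in reserve by synapsins, and docked and primed at the active zone by scaffold and priming proteins. Calcium that enters with an action potential binds a synaptotagmin, and the SNARE proteins Vamp2, Snap25 and Stx1a then join the vesicle to the plasma membrane. The ATPase Nsf and its SNAP adaptors take spent SNARE complexes apart, and dynamin, amphiphysin and synaptojanin act in bringing the membrane back into the terminal. Loss of presynaptic terminals is a known feature of amyloid disease in cortex.

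All libraries came from mice with the 5xFAD transgenes, which drive amyloid formation from the neuronal Thy1 promoter, so controls also develop amyloid. Control mice were 5xFAD+/-; Abca7WT/WT. The libraries labelled knockin (KI) carried a substitution in Abca7, which encodes a lipid transporter linked in humans to Alzheimer's disease risk. The protocol lists Abca7WT/KI and Abca7KI/KI mice and the label does not say which a library is. There were 5 libraries of each genotype from cortex of 3 months and 5 of 10 months, and mice without the transgenes were not analysed here. The series was made to ask what the substitution does to the brain's response to amyloid.

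Library totals ran from 42896149 to 57447015 counts. The protocol names male mice, but Xist reached 54206 counts in KI replicate 5 at 10 months, where Ddx3y, a gene of the Y chromosome, had 1 count. The other libraries held at most 218 and at least 2382. This library and KI replicate 3 at 3 months also stood apart over the members and over the other genes, as described at the end. Abca7 stood at 28.2 ± 1.38 CPM in control and 25.4 ± 4.88 in KI at 3 months, and at 27.04 ± 4.33 and 24.1 ± 4.08 at 10 months (SD, n = 5), with overlapping ranges, and a substitution need not alter its level. CPM, the unit of level used here, are a gene's counts set against the library total after scaling. The 12 cortical excitatory neuron markers summed to between 604 and 785 CPM in every library. Whether each library is a separate animal is not stated, and p-values measure the library spread alone, which may be technical.

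No member was called higher or lower in any of the 6 comparisons of age and genotype by edgeR's quasi-likelihood test, at an adjusted p under 0.05 over 19623 genes. How far this bounds a change is given below by the intervals. Most members were strongly expressed, and together they took 2.03% to 2.22% of all counts in every library. The share was 2.13% ± 0.036 in control and 2.14% ± 0.055 in KI at 3 months, and 2.12% ± 0.033 and 2.15% ± 0.080 at 10 months (SD, n = 5). In the same cortices 799 genes (4.07% of those tested) were called between 10 and 3 months in control and 1582 genes (8.06%) in KI.

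Levels between genes are compared as CPM per kilobase of the gene length given in the table, and the order depends on those lengths, of which 20 lay within 5% of the joined exons of GENCODE M21. By the table's lengths the highest mean over the 20 libraries was that of Slc17a7, which loads glutamate into vesicles, at 406 CPM per kb. By the M21 length of its exons (5392 bases against the table's 2939) Slc17a7 stood at 221 CPM per kb, rank 7, and Snap25 led. By the table's lengths Slc17a7 was followed by the membrane SNARE Snap25 at 393, the vesicle SNARE Vamp2 at 321, the vesicle membrane protein Syp at 286, Cplx1, a complexin that clamps the SNARE complex, at 255, and the calcium sensor Syt1 at 247 CPM per kb. Large scaffolds lay far lower, with Bsn at 29.6 and Pclo at 20.5 CPM per kb. The lowest were Vamp1 at 15.7, the Pclo lincRNA row at 9.59, the calcium sensor Syt2 at 8.09 and the vesicle glycoprotein Sv2c at 2.39 CPM per kb (1.10 by M21, the lowest of the 31 with such a length). Of the 31 pairs of neighbours in this order 28 overlapped in the ranges of their 20 libraries. The 3 gaps lay between Syt4 and Rims1, between Vamp1 and the lincRNA row, and between Syt2 and Sv2c.

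Within families the order was nearly the same in every library. On the per-length scale Vamp2 exceeded Vamp1, Syt1 exceeded Syt2, Syn1 exceeded Syn2, Rims1 exceeded Rims2, and both Sv2a and Sv2b exceeded Sv2c in 20 of 20 libraries. Bsn exceeded Pclo in 19, Sv2a exceeded Sv2b in 17 and Cplx1 exceeded Cplx2 in 16 of the 20. With M21 lengths the first 2 of these became 20 of 20 and the others kept their counts. By level per kb 29 of the 32 rows stood above about 79.8% of the genes tested or more, while the lincRNA row stood above 68.8%, Syt2 above 64.7% and Sv2c above 39.4%.

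**Figure D1:**
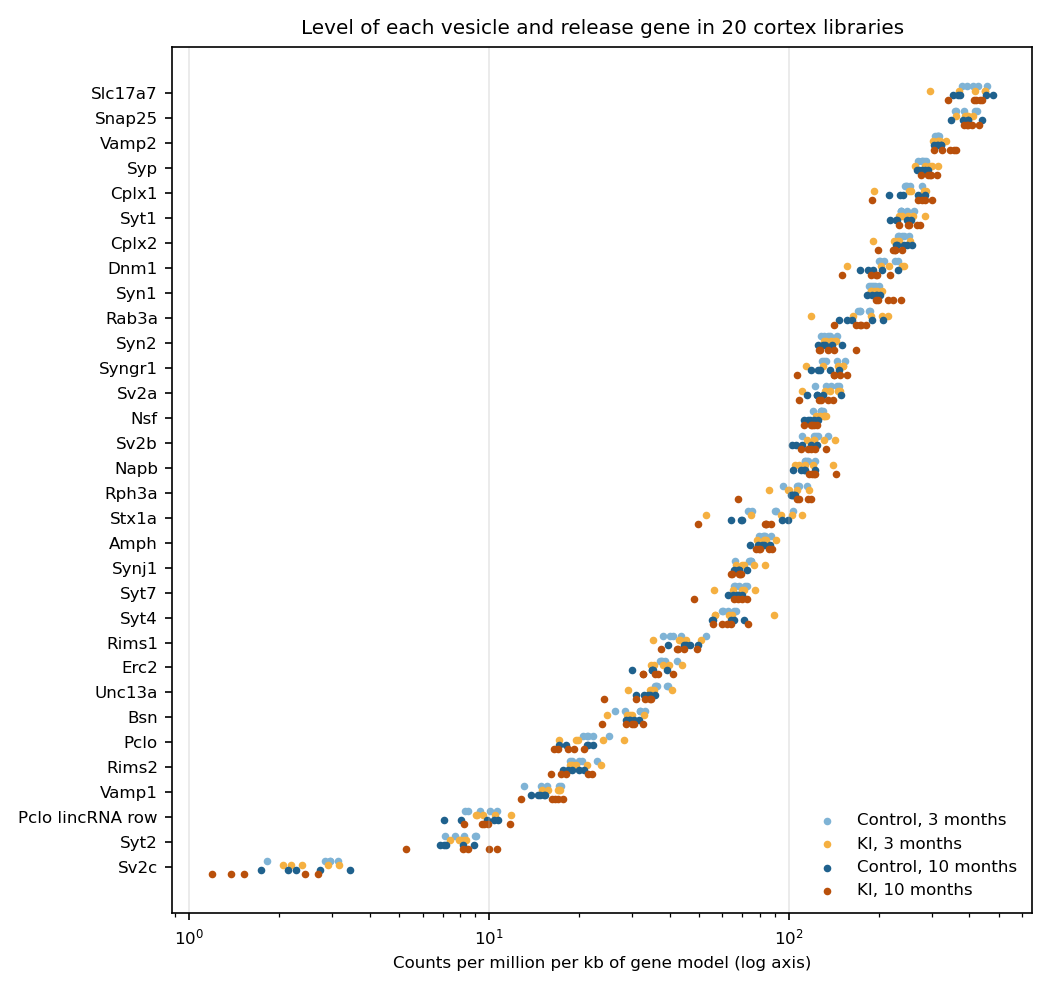
Level of each member as CPM per kb of gene length (log axis) in each of the 20 libraries, ordered by the mean and coloured by genotype and age. By the table's gene lengths Slc17a7 and Snap25 lead at 406 and 393 CPM per kb, Sv2c is lowest at 2.39, and the 4 groups overlap in every row.

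The members' spread between replicates was lower at the median than that of the genes tested. The median coefficient of variation over the 32 rows was 6.14% in control and 10.7% in KI at 3 months, and 7.69% and 9.97% at 10 months. Over all genes tested the medians were 10.1%, 16.0%, 12.8% and 12.1% in the same order, and genes of lower level are among them. The tightest value was 1.05%, for Vamp2 in control at 3 months, and the widest 36.4%, for Sv2c in KI at 10 months.

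In control mice 0 of 32 members were called between 10 and 3 months, against a background of 4.07% of genes. In bulk tissue fewer cells of a type and less RNA per cell cannot be told apart. One member, Nsf, had an unadjusted p under 0.05, where 13.6% of all genes did. DESeq2 called 0 members, beside 5.33% of all genes, and limma-voom with quality weights called 1, Nsf, beside 6.42%. Of the 32 fold changes 26 lay below 0, with a median of -0.050 on the log2 scale beside -0.0034 over all genes, and the groups' CPM ranges overlapped for every member, while 5.69% of all genes had ranges apart.

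The age comparison in KI mice shares no library with that in control, but both use 1 spread per gene fitted over all 20 libraries. In KI 0 of 32 members passed between 10 and 3 months, against 8.06% of genes. Unadjusted p lay under 0.05 for 5 members (Nsf, Syn1, Synj1, Pclo and Sv2c) and for 21.2% of all genes. DESeq2 called 1 member (Nsf), beside 10.7% of all genes, and limma-voom 3 (Nsf, Sv2c and Syn1), beside 15.6%. The fold changes lay below 0 for 21 members and above for 11, with a median of -0.028 beside -0.0031 over all genes. The ranges overlapped for every member and were apart for 7.17% of all genes.

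Between genotypes no member was called either. At 3 months 0 of 32 were called, beside 0.0255% of all genes, and 0 had an unadjusted p under 0.05, beside 3.8%. At 10 months 0 were called, beside 0.0612%, and 2 (Syn1 and Napb) had an unadjusted p under 0.05, beside 7.86%. Averaged over the ages 0 were called, beside 0.0764%, and 3 (Syn1, Syp and Cplx2) had an unadjusted p under 0.05, beside 6.52%. The interaction, which asks whether ageing differed between genotypes, called 0 members and 0% of genes, and 0 members had an unadjusted p under 0.05, beside 4.5% of genes. DESeq2 and limma-voom each called 0 members in these 4 comparisons, beside 0.0153% to 0.341% of all genes. The groups' CPM ranges overlapped for every member at both ages, and were apart for 0.657% of all genes at 3 months and 1.49% at 10 months. The median log2 fold change of the members was 0.0065 at 3 months and 0.018 at 10 months, beside 0.0054 and 0.00018 over all genes. The comparisons share libraries: each genotype comparison uses groups that the age comparisons use too.

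How far such results bound a change is given by the intervals. The 95% interval of the fold change lay wholly within 1.2-fold in either direction for 18 of 32 members for age in control, for 19 for age in KI, for 24 for genotype at 3 months and for 19 at 10 months. Over all genes tested the shares were 28.8%, 23.9%, 34.8% and 30.2%. Averaged over ages the genotype interval was that narrow for 30 members, all but Stx1a and Sv2c, beside 52.3% of all genes. For the interaction it was so for 10 members, beside 13.4% of all genes. That member count stood at 15 without KI replicate 3 at 3 months and KI replicate 5 at 10 months. Intervals lay within 1.5-fold for all 32 members between genotypes at 3 months, and for all but Sv2c in the other 3 comparisons of 2 groups. Over all genes the shares within 1.5-fold were 69.9% and 66.5% for age in control and KI. Between genotypes they were 73.7% at 3 months and 72.1% at 10 months.

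**Figure D2:**
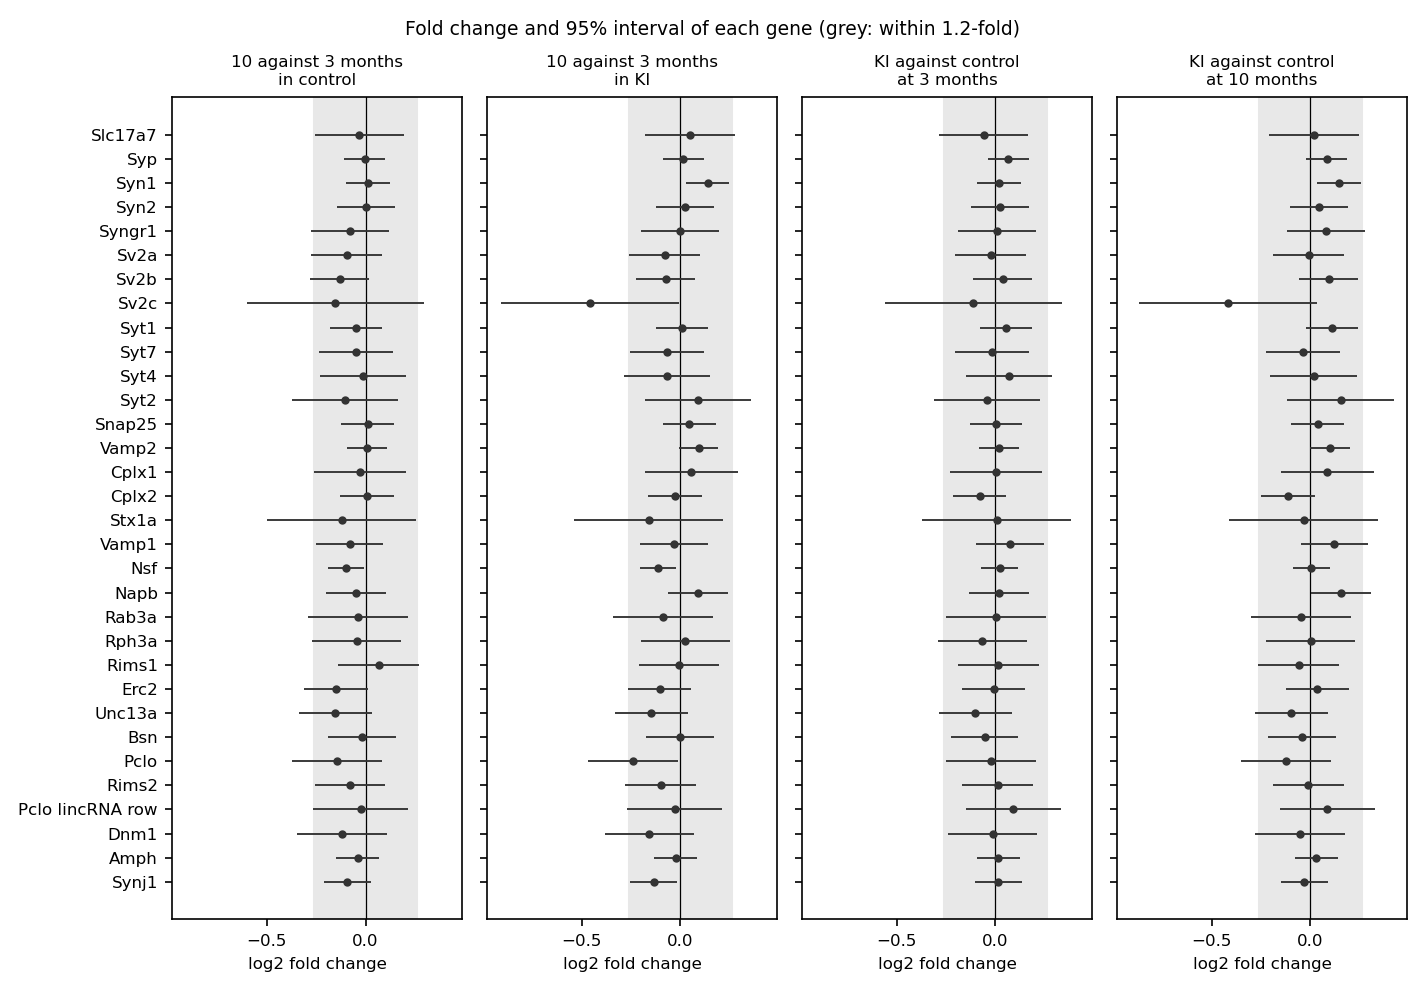
Log2 fold change of each member (points) with its 95% interval (bars) in the 4 comparisons of 2 groups, ordered by role, with the range within 1.2-fold in grey. Intervals are widest for Sv2c, Stx1a and Syt2 and narrowest for Nsf, Vamp2 and Syp.

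The vesicle proteins form the first role group of 8 members. With age 2 lay above and 6 below 0 in control, with a median log2 fold change of -0.054, and 4 above and 4 below in KI, with a median of 0.0065. Between genotypes 5 lay above and 3 below 0 at 3 months, and 6 above and 2 below at 10 months.

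Syn1 (chromosome X, 20860511 to 20921004) encodes synapsin I, which tethers vesicles to the reserve pool. At 3 months it stood at 639, 629, 609, 619 and 660.2 CPM in the control libraries (replicates 6 to 10, in that order here and below) and at 672, 647, 637, 620.4 and 621 CPM in KI (replicates 3 to 7). At 10 months the values were 661, 645, 626, 649 and 602 CPM in control and 706, 733, 646, 781 and 652 CPM in KI. The first 3 groups overlapped widely, while 3 of the 5 KI libraries at 10 months (replicates 3, 4 and 6) lay above every other library and the other 2 lay among them. The log2 fold change of KI against control at 10 months was 0.14 ± 0.053 (SE, 95% interval 0.034 to 0.25), with an adjusted p of 0.473 by edgeR. For age in KI it was 0.14 ± 0.053 (adjusted p = 0.125) and for age in control 0.012 ± 0.053. The interaction of Syn1 was 0.13 ± 0.075, with an adjusted p of 0.999. Without KI replicate 3 at 3 months and KI replicate 5 at 10 months Syn1 was the only member called, for age in KI, at 0.18 with an adjusted p of 0.038, where 7.97% of all genes were called. Araf, on the other strand, overlaps Syn1 and held counts equal to 25.6% of those of Syn1, and with the strand setting unknown its reads could be among them.

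Sv2c (chromosome 13, 95959443 to 96132577), a minor isoform of the vesicle glycoprotein family with a known place in the basal ganglia, had the largest fold changes and the widest spread. At 3 months it stood at 12.6, 13.2, 13.9, 13.1 and 8.10 CPM in control and at 12.9, 14.02, 10.6, 9.74 and 9.17 CPM in KI. At 10 months it stood at 12.1, 7.73, 10.1, 9.51 and 15.3 CPM in control and at 6.16, 5.29, 11.9, 6.78 and 10.9 CPM in KI. Replicates 3, 4 and 6 of KI at 10 months were the lowest of the 20 libraries, and the other 2 lay within the range of the rest. Its log2 fold change for age in KI was -0.46 ± 0.22 (95% interval -0.91 to -0.0068, adjusted p = 0.227) and for KI against control at 10 months -0.42 ± 0.22 (adjusted p = 0.66). Markers of striatum, which lies beside cortex, summed to between 224 and 526 CPM in KI at 10 months and to between 334 and 507 CPM in control. Their part in the Sv2c values was not tested.

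Syp, synaptophysin, a widely used marker of terminals, stood at 1453 ± 31.97 CPM in control and 1520.1 ± 99.2 in KI at 3 months, and at 1448 ± 49.1 and 1535 ± 68.9 CPM at 10 months (SD, n = 5). The KI libraries ran from 1373 to 1639 CPM at 3 months and from 1436 to 1625 at 10 months, and the control libraries lay within 1409 to 1494 and 1395 to 1515. Averaged over ages its log2 fold change was 0.074 ± 0.035, with an adjusted p of 0.764.

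Sv2b, the major cortical partner of Sv2a in the SV2 family, stood at 701 ± 51.2 CPM in control at 3 months and 641 ± 51.7 at 10 months, a log2 fold change of -0.13 ± 0.072 with an adjusted p of 0.48. In KI it stood at 719.6 ± 62.4 and 683 ± 50.3 CPM. The other vesicle proteins are given by their ranges. Slc17a7 ran from 870.0 to 1408 CPM over the 20 libraries, Syn2 from 708 to 947, Syngr1 from 513 to 749 and Sv2a from 499 to 690.2. Rpl3 overlaps Syngr1, with counts equal to 48.1% of its counts.

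The 4 synaptotagmins all lay below 0 with age in control (median -0.050), and 2 of 4 did in KI (median -0.030). Syt1, the fast calcium sensor, stood at 2034 ± 91.6 and 2109 ± 174 CPM at 3 months in control and KI, and at 1965 ± 132 and 2119.8 ± 132 CPM at 10 months. Averaged over ages its log2 fold change between genotypes was 0.081 ± 0.045, with an adjusted p of 0.822. Syt2, the sensor of fast hindbrain and parvalbumin-type synapses, stood at 53.8, 52.4, 62.7, 55.02 and 68.1 CPM in control and at 62.5, 64.7, 40.3, 81.2 and 76.1 CPM in KI at 10 months. The KI libraries held both the lowest value of Syt2 and its 2 highest of all 20. Its interaction was 0.20 ± 0.18 on the log2 scale (adjusted p = 0.999). Ppp1r12b, on the other strand, overlaps the span of Syt2 and held counts equal to 275% of those of Syt2. This was the largest such share among the members, and whether the genes share reads was not examined. Syt7, a slow sensor of asynchronous release, ran from 336 to 537 CPM and Syt4, which lacks calcium binding in its first C2 domain, from 216 to 349 CPM over the 20 libraries.

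Among the 6 SNARE proteins and complexins 3 lay above and 3 below 0 with age in both genotypes, with medians of -0.011 and 0.0093. Vamp2 (chromosome 11, 69088490 to 69092384), the vesicle SNARE of forebrain synapses, stood at 1194, 1159, 1228, 1228 and 1189.6 CPM in control and at 1313, 1375, 1159, 1350.3 and 1233 CPM in KI at 10 months. At 3 months it ran from 1173 to 1207 CPM in control and from 1149 to 1274 CPM in KI. Replicates 3, 4 and 6 of KI at 10 months, the same that were highest in Syn1, were the highest of the 20, and replicate 5 tied with the lowest control library of that age to within rounding. The log2 fold change at 10 months was 0.10 ± 0.048, with an adjusted p of 0.633.

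Cplx2, a complexin of excitatory neurons, stood at 1237, 1191, 1177, 1148 and 1139 CPM in control and at 942, 1107, 1146, 1253 and 1126 CPM in KI at 3 months. At 10 months the values were 1118, 1126, 1216, 1267 and 1190.5 CPM in control and 1113, 1113, 976, 1094 and 1173 CPM in KI. The lowest library of each age was KI replicate 3 at 3 months and KI replicate 5 at 10 months. Averaged over ages the log2 fold change was -0.10 ± 0.046 (adjusted p = 0.765), and the value at 3 months, -0.081, turned to 0.0057 with the replicate number as a block. Without those 2 libraries they were -0.054 and -0.023.

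Stx1a, the plasma membrane syntaxin, had the widest spread among members above 100 CPM. It stood at 141, 199, 251, 294 and 273 CPM in KI at 3 months and at 224, 224, 133, 232 and 222 CPM in KI at 10 months. Replicate 3 at 3 months and replicate 5 at 10 months lay at the bottom of all 20 libraries. The control libraries ran from 195 to 276 CPM at 3 months and from 171 to 266 CPM at 10 months. Its log2 fold change was -0.12 ± 0.18 for age in control and -0.034 ± 0.18 for genotype at 10 months, with adjusted p of 0.882 and 0.98. The latter turned to 0.080 without the 2 libraries at the bottom, and its sign changed in 7 of the alternatives. Vamp1, the vesicle SNARE of brainstem and spinal cord, stood at 136 ± 15.4 CPM in control and 143 ± 8.66 in KI at 3 months. The log2 fold change of 0.074 ± 0.082 at that age turned to -0.080 with the thalamus marker score as a covariate. Snap25 ran from 2351 to 2990.0 CPM and Cplx1 from 414 to 655 CPM over the 20 libraries.

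Nsf (chromosome 11, 103821782 to 103954056), the ATPase that disassembles SNARE complexes, had the smallest p of the members for age in control. In control it stood at 1067, 1066, 1086, 1068 and 1007 CPM at 3 months and at 981, 969, 1043, 1015 and 940.0 CPM at 10 months. In KI it stood at 1024, 1089, 1093, 1058 and 1109 CPM at 3 months and at 991, 1008, 937, 1032 and 995 CPM at 10 months. In each genotype most 10-month libraries lay below every 3-month library, but replicates 8 and 9 of control and replicate 6 of KI at 10 months reached above the lowest 3-month library of their genotype. The log2 fold changes were -0.10 ± 0.044 in control (95% interval -0.19 to -0.0052, adjusted p = 0.325) and -0.11 ± 0.044 in KI (-0.21 to -0.022, adjusted p = 0.129), neither a call. DESeq2 called Nsf in KI at -0.13 (adjusted p = 0.0066), and limma-voom called it in both genotypes at -0.12 (adjusted p = 0.033 and 0.015). Between genotypes Nsf differed by 0.021 ± 0.044 at 3 months and 0.0046 ± 0.044 at 10 months.

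Napb, a SNAP adaptor of Nsf found mainly in brain, had an unadjusted p of 0.0465 between genotypes at 10 months. At 10 months it stood at 864, 772, 727, 789 and 795 CPM in control and at 842, 864, 1012, 857 and 820.4 CPM in KI. At 3 months it stood at 863, 800.0, 809, 798 and 815 CPM in control and at 991, 846, 798, 759.8 and 739.7 CPM in KI. The 2 highest of the 20 values were those of KI replicate 5 at 10 months and KI replicate 3 at 3 months. The log2 fold change of KI against control at 10 months was 0.16 ± 0.073 (adjusted p = 0.63), and for age in KI it was 0.089 ± 0.073. Without these 2 libraries the former was 0.090, and it ranged from 0.017 to 0.19 over the alternatives.

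**Figure D3:**
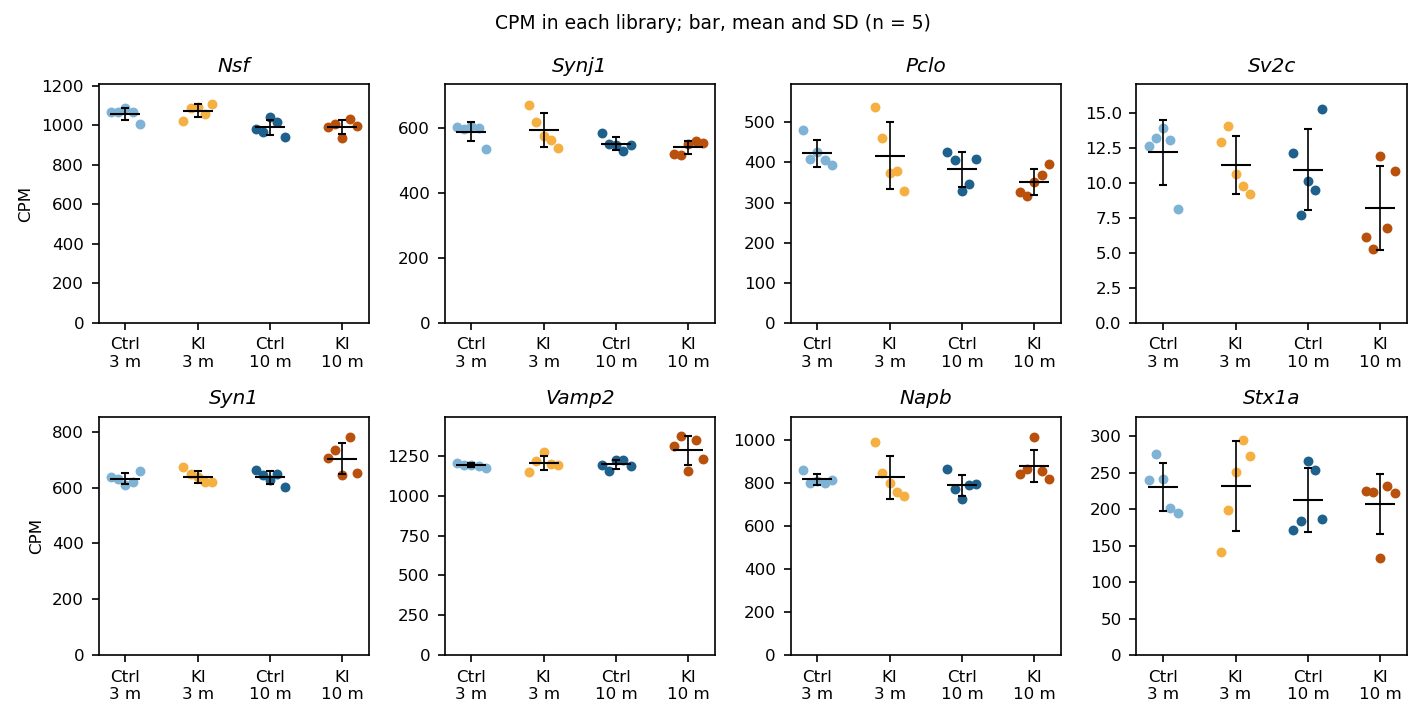
CPM of 8 members in each library by group (points), with the mean and SD (n = 5) as bars; axes start at 0. The groups overlap in every panel. Most 10-month points of Nsf lie under those of 3 months, Syn1 and Vamp2 have 3 high KI libraries at 10 months, and Stx1a has 1 low KI library at each age.

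At the active zone, 7 of 8 members lay below 0 with age in each genotype, with medians of -0.062 in control and -0.094 in KI, and 0 of 8 were called. In KI the 7 became 4 of 8 without KI replicate 3 at 3 months and KI replicate 5 at 10 months, with a median of -0.053. Pclo (chromosome 5, 14514918 to 14860184), piccolo, a giant scaffold of the cytomatrix, stood at 539, 461, 373, 379.7 and 329 CPM in KI at 3 months and at 326, 317, 352, 369 and 397 CPM in KI at 10 months. In control the values were 480.0, 409, 427, 407 and 393 CPM at 3 months and 426, 406, 328, 346 and 409 CPM at 10 months. The highest of all 20 was KI replicate 3 at 3 months, the lowest were KI replicates 3 and 4 at 10 months, and the groups overlapped. Its log2 fold change for age in KI was -0.24 ± 0.11 (adjusted p = 0.203) and in control -0.14 ± 0.11. Without KI replicate 3 at 3 months and KI replicate 5 at 10 months these were -0.14 and -0.13. The lincRNA row next to Pclo differed by -0.025 in control and -0.030 in KI with age, each ± 0.12.

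Erc2, a scaffold that links Rims proteins to the active zone, stood at 257, 234, 227, 230.1 and 226 CPM at 3 months and at 238, 213, 183, 213 and 214 CPM at 10 months in control. At 10 months 4 of the 5 control libraries lay below every control library of 3 months. The log2 fold change in control was -0.15 ± 0.077 (adjusted p = 0.427), and with 1 surrogate variable as covariate it was -0.16 and called, at an adjusted p of 0.017. Unc13a, the priming factor Munc13-1, stood at 472 ± 24.2 CPM at 3 months and 424 ± 23.02 at 10 months in control, and at 440.0 ± 51.8 and 397 ± 55.02 CPM in KI. The log2 fold changes with age were -0.15 ± 0.089 and -0.15 ± 0.089, with adjusted p of 0.51 and 0.363. Between genotypes at 3 months Unc13a differed by -0.10, which turned to 0.016 with the replicate number as a block. Colgalt1 overlaps Unc13a, with counts equal to 16.2% of its counts.

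The small GTPase Rab3a and its effector Rph3a ran from 263 to 475 CPM and from 279.6 to 489.9 CPM over the 20 libraries. Rims1, which ties vesicle-bound Rab3 to calcium channels, was the only one of the 8 above 0 with age in control, at 0.067 ± 0.10 on the log2 scale, and stood at -0.0082 in KI (0.099 without KI replicate 3 at 3 months and KI replicate 5 at 10 months). Rims2 and the scaffold Bsn, bassoon, differed with age by -0.078 and -0.018 in control and by -0.10 and -0.0032 in KI. Without those 2 libraries the values in KI turned to 0.0082 and 0.0034.

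All 3 endocytic members lay below 0 with age in both genotypes, with medians of -0.092 in control and -0.14 in KI, and 0 of 3 were called. Synj1, the lipid phosphatase synaptojanin that strips clathrin coats from new vesicles, stood at 672, 619, 574, 564 and 539 CPM at 3 months and at 521, 517, 551, 559.7 and 554 CPM at 10 months in KI. In control it stood at 602, 596, 605, 601 and 536 CPM at 3 months and at 584, 551, 549, 528 and 547 CPM at 10 months. In control 4 libraries of 3 months lay above all 5 of 10 months, and replicate 10, the lowest of its group, lay among them. The log2 fold change was -0.14 ± 0.057 in KI (adjusted p = 0.17) and -0.092 ± 0.057 in control (adjusted p = 0.564). Dnm1, dynamin 1, the GTPase that pinches vesicles off, gave -0.12 ± 0.11 in control and -0.16 ± 0.11 in KI. With 1 surrogate variable as covariate Dnm1 was called in both, at -0.12 and -0.17 (adjusted p = 0.027 and 0.0011). Amph, amphiphysin, differed by -0.040 ± 0.052 and -0.024 ± 0.052.

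Beside the age comparisons, 10 of 12 microglial markers rose in each genotype, with medians of 1.90 and 2.02 on the log2 scale, and their summed level went from between 293 and 374 CPM at 3 months to between 708 and 1148 CPM at 10 months. Of 8 astrocyte markers 3 rose in each genotype. Of 12 general neuronal markers 0 were called in either, and they summed to between 4665 and 5003 CPM at 3 months and to between 4583 and 4796 CPM at 10 months. Of 12 interneuron markers 2 fell in KI, Gad1 by 0.23 and Kcnc2 by 0.27 on the log2 scale. Of 6 endothelial markers 0 were called in control and 4 in KI, 1 higher and 3 lower, with a median of -0.31. Of 8 oligodendrocyte, 11 striatum and 12 choroid plexus markers 0 were called in either genotype. The choroid plexus markers were not even, though. All 12 lay above 0 with age in control (median 0.76) and all 12 below 0 in KI (median -1.04). They summed to between 319.5 and 3507 CPM within control at 10 months alone. The part of these cell types in the members' values was not tested.

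Markers of thalamus, whose relay neurons use other paralogues of these families, were lower at 10 months. All 11 tested lay below 0 with age in both genotypes, 2 called in control and 10 called in KI, and all 11 lay above 0 for KI against control at 3 months, with 0 called. At 10 months 8 lay above and 3 below 0 between genotypes (median 0.055), again with 0 called. They summed to between 149 and 276 CPM in control and 196 and 371 CPM in KI at 3 months, and to between 136 and 160 CPM at 10 months. With their score as a covariate 0 members were called in any comparison.

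Other genes of the same pathway came from 5 lists of 99 genes in all, of which 97 were tested. In control 1 was called with age, Syngr2, a synaptogyrin found in many tissues, which rose by 0.55 ± 0.16 on the log2 scale (edgeR adjusted p = 0.0491). The background for a rise was 3.72% of genes and for a fall 0.357%. Fold changes lay below 0 for 74 of the 97, with a median of -0.087. Without KI replicate 3 at 3 months and KI replicate 5 at 10 months, 4 more were called, all lower: Slc17a6, Slc6a17, Rimbp2 and Cacna1b, at -0.43, -0.22, -0.25 and -0.20.

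In KI mice 7 of the 97 pathway genes were called with age, 1 higher and 6 lower, beside 5.66% and 2.41% of all genes. Vamp3, cellubrevin, a vesicle SNARE of glia and other cells, rose by 0.24 ± 0.070. Rimbp2, which couples calcium channels to Rims proteins, changed by -0.36 ± 0.075 (adjusted p = 0.00315), Unc13c, a Munc13 paralogue, by -0.78 ± 0.19, and Synj2 by -0.26 ± 0.066. The synaptotagmins Syt17 and Syt9 changed by -0.42 ± 0.12 and -0.43 ± 0.12. Slc17a6, the vesicular glutamate transporter of thalamic and other subcortical neurons, changed by -0.54 ± 0.15, and it is itself one of the thalamus markers. Without the same 2 libraries 8 were called, 1 higher and 7 lower. The thalamus score itself parted the ages in KI, from 0.42 to 1.47 at 3 months and from -0.58 to -0.37 at 10 months. A fit with the score as covariate therefore cannot separate age from the score in KI. With the thalamus score as covariate 0 of the 97 were called in either genotype. The genes called over the whole table went from 1582 to 275 for age in KI and from 799 to 519 in control. The medians of the 97 were then -0.088 in KI, from -0.042, and -0.091 in control, from -0.087. Between genotypes 0 of the 97 were called at either age, with 0 of unadjusted p under 0.05 at 3 months and 5 at 10 months.

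On the receiving side of the synapse, 28 genes of the postsynaptic density all lay below 0 with age in both genotypes, with medians of -0.14 and -0.19. Homer1, a scaffold whose short form is induced by activity, fell by 0.48 in control and by 0.78 in KI (edgeR adjusted p = 0.0211 and 0.00014), and Lrrc7, densin, fell by 0.48 in KI. Homer1 was called in both genotypes also with the thalamus score as covariate, and without the 2 libraries, where 27 and 25 of the 28 lay below 0 and 4 were called in KI. Between genotypes the postsynaptic list leaned the same way, with 22 of 28 below 0 at 3 months and 22 at 10 months. The medians there were -0.070 and -0.092, with 0 called. The members' medians with age were -0.050 and -0.028, and no test compared the lists.

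Pairs of paralogues were compared within each library as a log2 ratio of CPM, which does not depend on scaling. None of 32 tests (8 pairs in 4 comparisons) passed after adjustment, with a smallest adjusted p of 0.969 by a 2-sided exact permutation test over 252 assignments. The smallest possible p of that test is 0.00794. A single test at that p could not pass after adjustment over 32 tests, so the lack of calls decides little. The smallest p was that of Rims1 over Rims2 with age in control, which went from 1.58 ± 0.11 to 1.73 ± 0.085 (SD, n = 5, exact p = 0.0556). Vamp1 over Vamp2 went from -3.07 ± 0.096 to -3.20 ± 0.11 with age in KI (n = 5, exact p = 0.0873). Cplx1 over Cplx2 stood at -1.13 ± 0.11 in control and -0.94 ± 0.19 in KI at 10 months (n = 5, exact p = 0.119). Bsn over Pclo, Syn1 over Syn2, Syt1 over Syt2, Sv2a over Sv2b and Sv2a over Sv2c had larger p in each of the 4 comparisons.

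Libraries of the same group differed from each other in a way that the members largely shared. One axis held 60.7% of the members' variance around their group means, and the next 15.3%. Over the other 19591 genes tested the first axis held 20.6%. Those genes include many of lower level, and no set of like size and level was compared. Whether the larger share is particular to the members is therefore not known. At its low end stood KI replicate 5 at 10 months, at -1.55, and KI replicate 3 at 3 months, at -1.52, with the next library, control replicate 6 at 10 months, at -0.69. The same 2 libraries were lowest on the first axis of the other genes, at ranks 2 and 1 of 20.

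Along that axis some members were low where others were high. The largest positive loadings were those of Stx1a (0.43), Rab3a (0.27), Cplx1 (0.26), Dnm1 (0.25) and Slc17a7 (0.24), which were low in these 2 libraries. The largest negative loadings were those of Sv2c (-0.30), the Pclo lincRNA row (-0.22), Syt4 (-0.21) and Pclo (-0.17), which were high in both libraries except Pclo, which lay 0.005 from its group mean in the second. Against the mean of its group, Stx1a lay lower by 0.67 on the log2 scale in KI replicate 3 at 3 months and by 0.61 in KI replicate 5 at 10 months, whereas Syt4 lay higher by 0.46 and 0.22. Rab3a stood at 263, 364, 418, 475 and 455 CPM in KI at 3 months and at 401, 387, 314, 385 and 373 CPM at 10 months. Slc17a7 stood at 870.0, 1082, 1231, 1325 and 1322 CPM and at 1239.8, 1272, 997, 1294 and 1222 CPM in the same groups. In both genes replicate 3 was the lowest at 3 months and replicate 5 the lowest at 10 months.

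**Figure D4:**
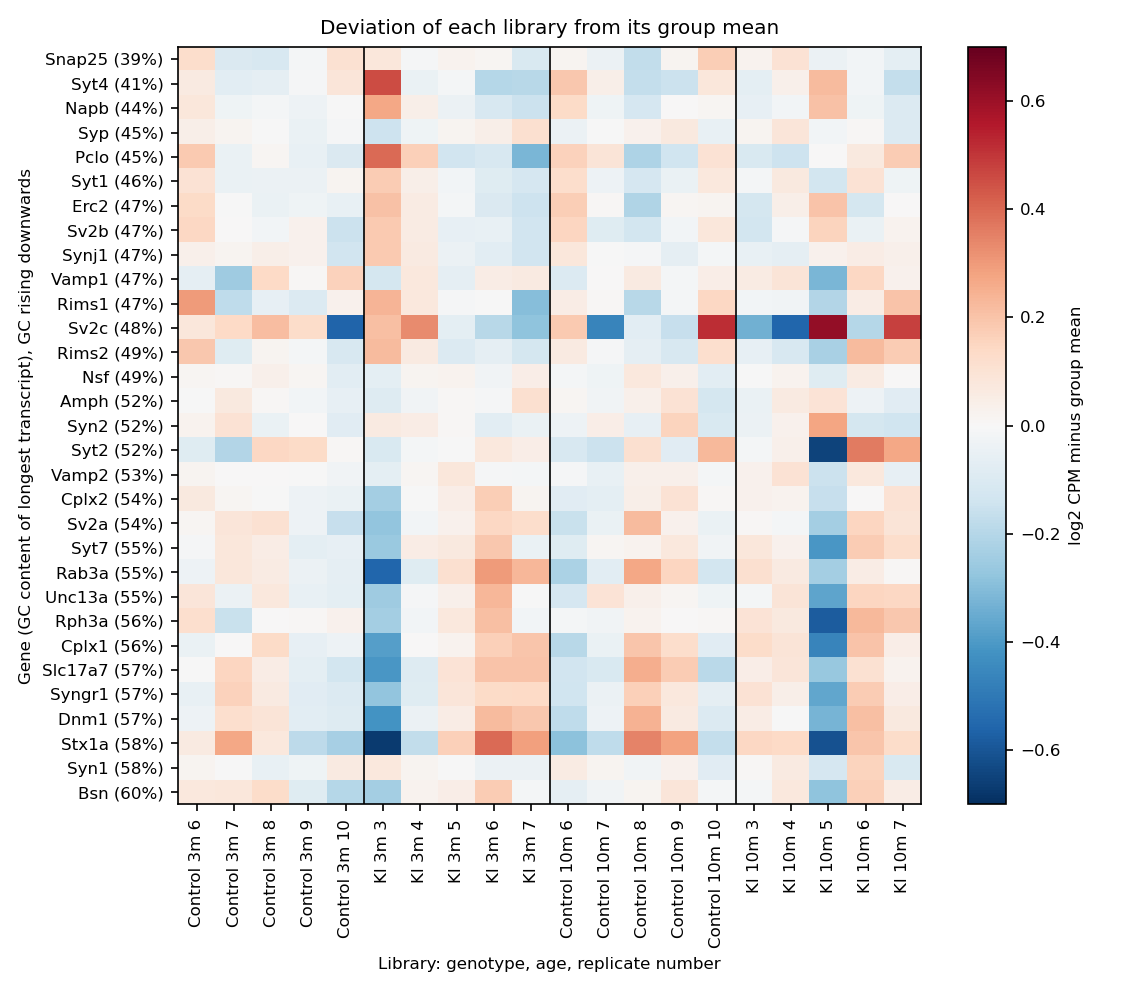
Difference of log2 CPM from the group mean for 31 members (rows, from low to high GC content) in the 20 libraries (columns, by group). Most rows of high GC are blue in KI replicate 3 at 3 months and KI replicate 5 at 10 months, and rows of low GC are red in the first of these.

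The loading was set against the base composition of the transcript. GC content of the longest annotated transcript, known for 31 of the 32 rows, ran from 38.7% in Snap25 to 59.8% in Bsn, and its correlation with the loading was r = 0.76 and rho = 0.77 across the 31 genes, which are not independent. The deviation in KI replicate 3 at 3 months correlated with GC content at r = -0.77, and that in KI replicate 5 at 10 months at r = -0.60. Over the 19405 tested genes with a GC value the same correlations were -0.63 and -0.35. By rho they were -0.77 and -0.69 across the members and -0.71 and -0.49 over those genes. Of the 17 members of at least 50% GC, 15 lay below their group mean in each library, with medians of -0.25 and -0.28. Of the 14 members of lower GC, 11 lay above it in the first and 7 in the second. Syn1, at 57.9% GC, stood apart from its neighbours in composition, with a loading of 0.011. Points share their libraries, and no test was made. Excitatory neuron markers summed to 677 CPM in KI replicate 3 at 3 months and 604 CPM in KI replicate 5 at 10 months. Each was the lowest of its age. General neuronal markers summed to 4665 and 4796 CPM, at the low end of 3 months and the highest of 10 months. Averaged instead as log2 CPM around each marker's mean over the 20 libraries, they stood at -0.154 and -0.031. The first was the lowest of all 20 libraries and the second the lowest of its group. Microglial markers summed to 344 CPM, inside the range of 3 months, and 1148 CPM, the highest of all. The part of cell types in the axis was not tested.

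**Figure D5:**
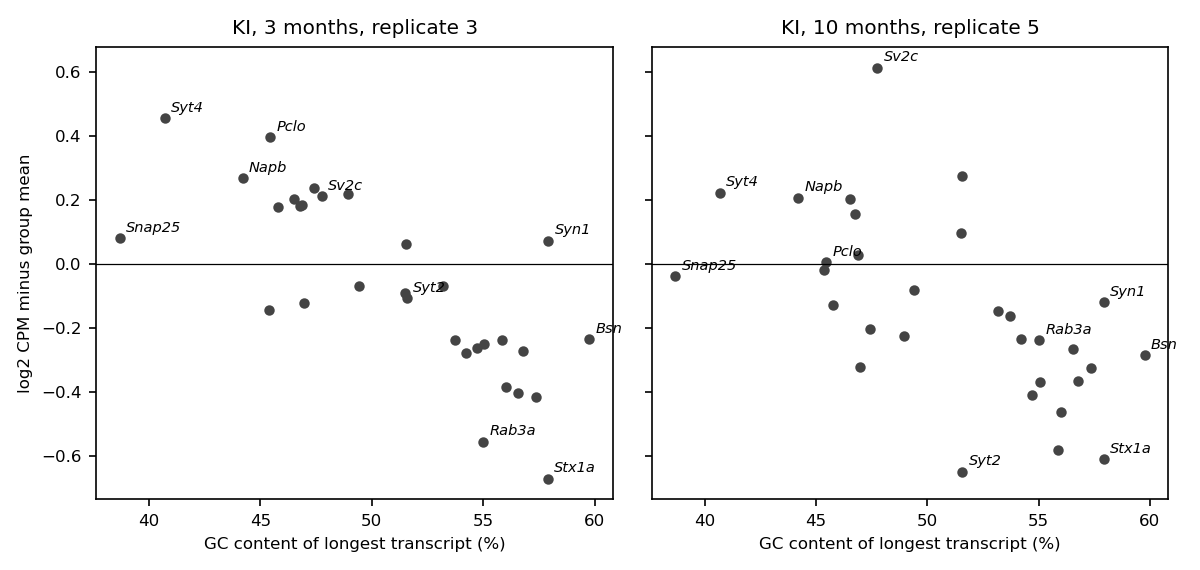
Deviation of each of 31 members from its group mean (log2 CPM) against the GC content of its longest transcript, in the 2 libraries at the low end of the shared axis. Points fall from upper left to lower right in both, with Stx1a lowest in KI replicate 3 at 3 months and Syn1 above its neighbours of like GC.

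Both libraries belong to KI, 1 to each age, and so widen the spread of that genotype. The fit shares 1 spread per gene over all groups, so intervals of every comparison, age in control included, depend on these 2 libraries. Without them 0 members were called for age in control, 1 (Syn1) for age in KI and 0 between genotypes at 3 and at 10 months, beside 5.32%, 7.97%, 0.0203% and 0.0761% of all genes. The members of unadjusted p under 0.05 then numbered 3, 5, 1 and 8 in those comparisons, beside 1, 5, 0 and 2 with all 20 libraries. Intervals within 1.2-fold numbered 26, 23, 28 and 24, beside 18, 19, 24 and 19. The shares of all genes for these counts were not computed in the fit without the 2 libraries. The fold changes for age in KI then lay above 0 for 15 members and below for 17. With 1 surrogate variable estimated from all genes as covariate, 3 members were called lower with age in control (Nsf, Erc2 and Dnm1). In KI 5 were called, 3 lower (Dnm1, Nsf and Synj1) and 2 higher (Syn1 and Napb), at -0.17, -0.12, -0.12, 0.14 and 0.11 in that order. That fit called 1967 genes (10.0%) for age in control and 4091 (20.8%) in KI over the whole table.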

How the data were processed

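RNA from cortex was sequenced on an Illumina HiSeq instrument, per the labels. The authors deposited 1 table of whole-number read counts per gene, not normalized. Per the submitters' processing notes the reads were placed on mm10. For the aligner, the counter and its strand setting, and the annotation release, nothing is given in the sources used here. All 37 mitochondrial genes were 0.

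From the deposited counts, filterByExpr kept 19623 genes, and libraries were scaled by TMM in edgeR 4.0.16 (R 4.3.3). Its quasi-likelihood F test was fitted to 4 group means over 20 libraries, with 16 residual degrees of freedom and Benjamini-Hochberg adjustment over all genes within a comparison. Intervals are the log2 fold change with its SE and the t quantile at 95%. CPM are TMM-scaled, log2 CPM uses a prior count of 2, and lengths are the table's own. Replicates differed by more than counting error, with a chi-square per degree of freedom of 10.7 to 120. GC content came from GENCODE M21, the shared axis from principal components of log2 CPM around group means. The fit was tested on simulated data.

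The members and the lists were chosen with earlier results of these data known. Named members are the 4 of smallest p in each comparison. Others shown in every library, such as Stx1a, were chosen after their values were seen. From other lists, called genes are named. Of 230 list genes 229 were found. Replicate numbers were not used as pairs. Of 32 members 20 overlap another row of the table, 6 of them one with at least 5% of their counts. Alternatives were RLE scaling, other filters, DESeq2 1.42.0, limma-voom (limma 3.58.1), a replicate block, 1 surrogate variable (sva 3.50.0), a thalamus covariate, only the compared libraries, a threshold of 0.10, a prior count of 0.5, each library left out, and 1 added after seeing the data, both KI libraries that stand apart left out.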

Additional observations from a re-analysis of the deposited data

Results flagged for a closer look

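In 13 of 128 sets of 5 libraries (32 rows in 4 groups, 10.2%) the highest or lowest CPM lay farther from its nearest neighbour than 71% of the group's range. For normally distributed values chance gives about 1 in 20 such sets, and the rows are not independent. The share of all genes tested that meet this rule was not computed, so whether 10.2% is particular to the members is not known.

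Of the 13, 7 belonged to KI replicate 5 at 10 months. Stx1a stood there at 133 CPM beside 222 to 232 in the other libraries of its group, Rph3a at 279.6 beside 438 to 489.9, Cplx1 at 414 beside 589 to 655, Syt7 at 336 beside 456 to 505 and Vamp1 at 111 beside 142 to 154. Slc17a7, the vesicular glutamate transporter, stood at 997 beside 1222 to 1294 CPM. Napb was the one high value, at 1012 beside 820.4 to 864 CPM.

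Control replicate 10 at 3 months was low in 3 members. Nsf stood there at 1007 CPM beside 1066 to 1086, Synj1 at 536 beside 596 to 605, and Sv2c at 8.10 beside 12.6 to 13.9 CPM. Control replicate 6 at 3 months was high in Napb, at 863 beside 798 to 815 CPM, and in Erc2, at 257 beside 226 to 234 CPM. KI replicate 3 at 3 months was high in Syt4, at 349 beside 221 to 251 CPM.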

How the results depend on the processing

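No comparison called a member as reported, and 0 members were called under RLE scaling, other filters, a threshold of 0.10, the compared libraries alone, the thalamus covariate, the replicate block or with any single library left out (0 to 0). Calls appeared as follows. DESeq2 called 1 for age in KI. Limma-voom called 1 for age in control and 3 in KI, 1 surrogate variable 3 and 5, and leaving out both KI libraries together, which was chosen after seeing the data, 1 for age in KI. The cause was not tested. Paralogue ratios gave 0 calls in every setting, where a single test at the smallest possible p could not pass after adjustment. Of the 24 fold changes of smallest p (4 members in each comparison) 3 turned in sign, none of them called: Cplx2 to 0.0057 and Unc13a to 0.016 between genotypes at 3 months with the replicate block, and Vamp1 to -0.080 in the same comparison with the thalamus covariate. Over all 32 members many fold changes near 0 turned in sign under some alternative (13 for age in control, 17 for age in KI, 29 between genotypes at 3 months and 18 at 10 months), with none called where it had turned. Leaving out both KI libraries alone turned 1, 8, 12 and 10.

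Replicate numbers were shared by 18 pairs of libraries, 3 of them correlated above 0.1 (range -0.34 to 0.28), and 1 of the 20 correlated best with a library of its own number, so the replicate block, with 653 genes called for age in control and 1192 in KI, is not a paired fit. Genotype calls over all genes went from 5 to 12 at 3 months and from 12 to 59 at 10 months with DESeq2. With 5 libraries a group the intervals bound a change to 1.2-fold for only part of the members, and Syt2, Syngr1 and Syn1 overlap other expressed genes, whose reads could be among theirs.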
